A study of Saccharomyces cerevisiae with 16 samples.

Results

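Translational efficiency, the ratio of ribosome footprint level to mRNA level of an open reading frame, was compared between budding yeast (Saccharomyces cerevisiae) lacking the arginine permease gene CAN1 and its wild type. The members were all open reading frame rows with reads in at least 1 footprint and at least 1 mRNA library of each of these strains, and 5268 of the 5574 listed rows met this rule. Of these, 4801 were tested, because at least 3 of the 6 footprint and 2 of the 4 mRNA libraries held them at a level worth 10 reads at median depth, and 467 members were not. Both strains were the haploid BY4741, with the CAN1 deletion in the can1 strain as the only labelled difference, and both were grown in rich YPD medium, in 500 ml to an optical density of 0.5. The whole series holds 16 libraries of 4 strains. The comparison rests on 3 wild-type and 3 can1 footprint libraries and on 2 wild-type and 2 can1 mRNA libraries. The 6 libraries of the rpl22a and tor1 deletions took part in the scaling between libraries. Their footprint libraries also added to the estimate of the spread, which the 1 mRNA library of each of these strains could not do. Whether replicates came from separate cultures is not labelled, and the p-values therefore speak only of the spread among these libraries.

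A footprint is the stretch of mRNA that a ribosome shields from nuclease, so the footprint level of a gene follows both how much of its mRNA is present and how many ribosomes each mRNA carries. Dividing by the mRNA level leaves the second quantity. Can1 carries arginine into the cell from the medium. Yeast makes arginine from glutamate through ornithine and citrulline, and the genes of this route answer to arginine through the ArgR/Mcm1 repressor and to amino acid shortage through the activator Gcn4. A pair of genes near this route is known for control at the ribosome. CPA1, the small subunit of the arginine-specific carbamoyl phosphate synthetase, has an upstream reading frame whose peptide stalls ribosomes when arginine is plentiful, and GCN4 has short upstream reading frames that hold back its translation in fed cells.

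Start codon contexts are shown for the 5 arginine genes with the highest footprint changes and for GCN4, because initiation at these codons sets the numerator of the ratio. Each is 27 bases of the R64 reference, read 5′ to 3′ on the coding strand, with the ATG in capitals.
CPA1 (YOR303W, chrXV:882887-882913, plus strand): aaaatatttcaaATGtcctccgctgca
ARG8 (YOL140W, chrXV:58747-58773, plus strand): tcgctaccaatcATGtttaaaagatat
ARG56 (YER069W, chrV:295398-295424, plus strand): gtctgcatcattATGccatctgctagc
ARG3 (YJL088W, chrX:268787-268813, plus strand): acactcgttaccATGtcaaccacagca
ARG1 (YOL058W, chrXV:219199-219225, plus strand): ttgcataaaataATGtctaagggaaaa
GCN4 (YEL009C, chrV:139749-139775, minus strand): aatacaaataaaATGtccgaatatcag
ARG8, ARG56, ARG3, ARG1 and GCN4 have A at base −3 from the ATG, and CPA1 has C.

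The upstream reading frames of CPA1 and GCN4 lie outside the listed coding sequences, so their footprints are not part of the values given here. The CPA1 frame is 25 codons long and its ATG stands 134 bases before that of the coding sequence. A frame of 25 codons lies within 300 bases before the start codon of 4.35% of the 5446 genes with such a window. The 4 GCN4 frames found in the 600 bases before its start codon stand 361, 293, 176 and 151 bases from it and are 3, 2, 3 and 3 codons long.
CPA1 upstream frame (chrXV:882753-882779, plus strand): aaaaaacattatATGtttagcttatcg
GCN4 first upstream frame (chrV:140110-140136, minus strand): gatcattgaaaaATGgcttgctaaacc
GCN4 last upstream frame (chrV:139900-139926, minus strand): attttattcaagATGtttccgtaacgg

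The deposited values are RPKM, reads per kilobase of listed length per 1e6 reads, and levels below are RPKM after scaling between libraries of 1 assay. Library totals read from the steps of those values ranged from 2.52 to 8.70 in units of 1e6 reads for the 6 footprint libraries and from 7.65 to 26.6 for the 4 mRNA libraries. No library pair was identical. Libraries of 1 strain differed about as much as libraries of both strains. The median absolute log2 difference over rows was 0.20 between the wild-type mRNA replicates and 0.25 between the can1 mRNA replicates, against 0.11 between wild-type mRNA replicate 2 and can1 mRNA replicate 1. The deviation of a library from the mean of the wild-type and can1 libraries of its assay also ran with gene length. The Spearman correlation of that deviation with length over 3819 rows was 0.58 in can1 mRNA replicate 2. It was between −0.38 and −0.17 in the other 3 mRNA libraries of these strains and ran from −0.51 to 0.37 over their footprint libraries. These values are relative, since a library that lies above the mean sets the others below it. LEU2, URA3 and MET17, which BY4741 lacks, had 0 reads in all 10 libraries, and HIS3, of which BY4741 keeps a part, had 100 to 1101 reads. STE2, the pheromone receptor of BY4741's mating type a, had 715 to 7547 reads, and STE3, the receptor of the other mating type, had 1 to 45. The mating type a pheromone genes MFA1 and MFA2 are listed at 0 reads in all 10 libraries.

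Across the 4801 rows few changes in the footprint to mRNA ratio stood out from the spread of replicates. In limma 1 row passed a Benjamini-Hochberg adjusted p of 0.05, which is 0.0208% of the rows tested, and that row is the deleted gene CAN1. Leaving CAN1 aside, 0 rows passed, while 91 rows (1.90%) had an unadjusted p under 0.05, of which 43 were higher and 48 lower in can1. limma's voom on the recovered reads also passed 0 rows. The changes of all rows had a standard deviation of 0.26 on the log2 scale, close to the median standard error of 0.25. The 95% interval of a row reached a median of 0.53 to either side, a factor of 1.45, and for 4084 rows (85.1%) it lay within 2-fold of no change in both directions. A change of log2 1 or more was estimated for 18 rows, 5 higher and 13 lower. The level of the ratio itself, taken from mean levels, was much alike in both strains. Its median was 0.926 in wild type and 0.911 in can1, its 5th and 95th percentiles were 0.315 and 3.20 in wild type, and the log2 ratios of both strains correlated at a Pearson r of 0.96 over 4800 rows, which are not independent replicates.

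CAN1 cannot be read as a change in translation. It had 582, 440 and 208 footprint reads and 147 and 619 mRNA reads in the wild-type libraries, against 1, 2 and 1 footprint reads and 0 and 3 mRNA reads in can1. Every can1 value thus lies at or under a floor of 3 reads per library. Its fitted change of −1.62 ± 0.21 (SE, adjusted p = 0.00744) moved to 0.00 under voom, and the call was lost with a pseudocount of 0.5 in place of 1 (adjusted p = 0.0768).

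More rows were called in footprints and in mRNA than in their ratio. In footprints 7 rows rose and 4 fell (0.229% of 4801), and in mRNA 40 rose and 17 fell (1.19%). The replicate number as a block raised these to 11 higher and 7 lower in footprints and to 54 higher and 60 lower in mRNA. For most rows the mRNA variance was pooled wholly over rows, so mRNA calls assume 1 spread for rows of like level, and they numbered 3 without can1 mRNA replicate 2, 10 without can1 mRNA replicate 1, 14 without wild-type mRNA replicate 1 and 113 without wild-type mRNA replicate 2. Of the 14 genes named here that were called in mRNA, CAN1, ARG3 and CAR2 kept the call in every alternative fit, and each of the other 11 lost it in at least 1. Of the 10 named here that were called in footprints, 7 kept the call in every alternative fit that tested them, and ARG4, DUR12 and MTE1 did not. Of the 40 rows higher in mRNA, 38 also had a footprint change above 0 and 5 passed there. Their median change was 1.1 in mRNA, 0.61 in footprints and −0.50 in the ratio. The 16 rows lower in mRNA besides CAN1 mirrored this, with medians of −0.96, −0.47 and 0.47. Rows chosen on a high or low mRNA value carry the error of that value into the ratio with the opposite sign, so these medians are a description only. The 7 rows higher in footprints, all of them arginine genes, had medians of 2.76 in footprints, 1.11 in mRNA and 0.56 in the ratio. Over all rows but CAN1 the changes in footprints and mRNA correlated at a Pearson r of 0.48 and a Spearman rho of 0.30.

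**Figure D1:**
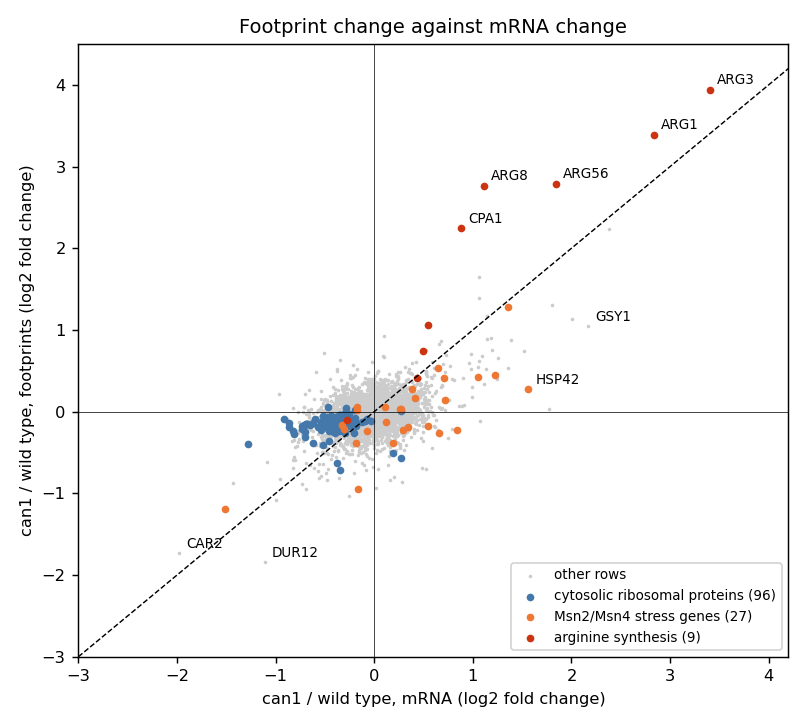
Log2 change in footprints (vertical) against log2 change in mRNA (horizontal), can1 against wild type, with 1 point per tested row except CAN1. The dashed diagonal marks no change in the ratio. Arginine synthesis genes run up the right side on or above the diagonal, while HSP42 and GSY1 lie below it.

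Arginine synthesis held the row with the highest ratio change of all tested, ARG8. All 9 genes of the list were tested. Their median change was 0.54 in the ratio, 2.25 in footprints and 0.88 in mRNA, and 8 of 9 lay above 0 in the ratio, against 2370 of 4801 over all rows, whose median was −0.00. None of the 9 passed in the ratio test, in which 0 rows (0%) were called higher, 7 rose in footprints, where 0.146% of rows were called higher, and 5 rose in mRNA, where 0.833% were. The members were chosen with these results known, so the counts are a description. Without scaling beyond the deposited RPKM the ratio median of all rows moved to −0.18, and list medians follow that shift; the arginine median was then 0.36.

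As background for statements that groups did not overlap, all can1 libraries lay above all wild-type libraries for 4.52% of the 4801 rows in footprints and 15.5% in mRNA, and below them for 3.94% and 13.6%.

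CPA1 had footprint levels of 33.1, 29.9 and 33.5 RPKM in wild type and 125, 171 and 179 RPKM in can1. Its mRNA levels were 39.5 and 29.8 RPKM in wild type and 55.9 and 73.3 RPKM in can1. All can1 libraries lay above all wild-type libraries in both assays, and the gap was wider in footprints. The ratio of mean levels went from 0.928 to 2.45, and the fitted change was 1.37 ± 0.27 on the log2 scale, with a 95% interval from 0.80 to 1.93. The unadjusted limma p was 0.000116 and the adjusted p 0.278. Libraries numbered 1 gave 1.39 and those numbered 2 gave 1.21. Leaving out single libraries gave values between 1.17 and 1.55, and the adjusted p was 0.0433 (change 1.53) without can1 footprint replicate 1.

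ARG8, acetylornithine aminotransferase, had 8.13, 4.60 and 9.34 RPKM of footprints in wild type and 50.9, 52.0 and 59.0 in can1. Its mRNA stood at 48.8 and 31.6 RPKM in wild type and at 97.9 and 75.4 in can1. The groups did not overlap in either assay. The ratio of mean levels was 0.183 in wild type, well under the median row, and 0.623 in can1. The fitted change was 1.65 ± 0.36 on the log2 scale (95% interval 0.90 to 2.41, limma adjusted p = 0.515), with 1.52 from libraries numbered 1 and 2.02 from those numbered 2. With the lysate as a block, pairing each footprint library with the mRNA library of its number, ARG8 passed (1.77, adjusted p = 0.0311) and was the single row called there.

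ARG56 encodes the acetylglutamate kinase and reductase of ornithine synthesis. Its footprint levels were 11.4, 11.4 and 9.92 RPKM in wild type and 62.8, 81.4 and 105 in can1, and its mRNA levels 14.3 and 9.87 in wild type and 38.5 and 53.1 in can1. The groups were apart in both assays. The ratio of mean levels was 0.902 in wild type and 1.81 in can1, a fitted change of 0.95 ± 0.30 with an interval from 0.31 to 1.59 (limma adjusted p = 0.9998), and the libraries numbered 1 and 2 gave 1.00 and 0.42.

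**Figure D2:**
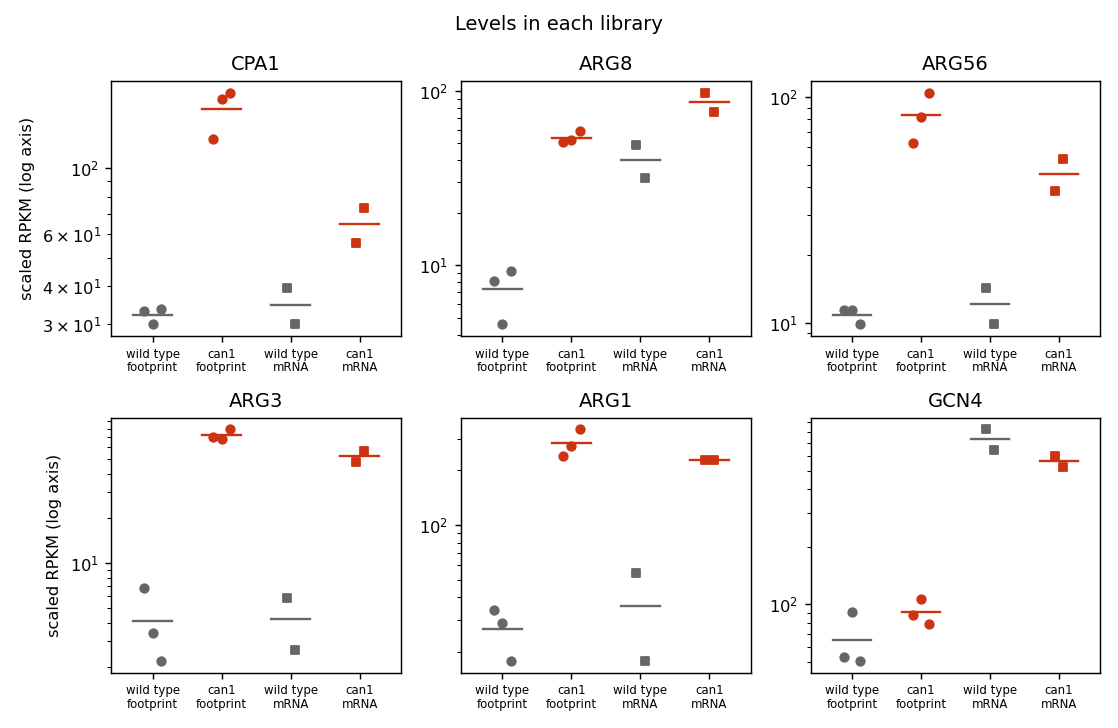
Scaled RPKM per library, on log axes, for CPA1, ARG8, ARG56, ARG3, ARG1 and GCN4. Circles are footprint libraries, squares mRNA libraries, grey wild type, red can1, and bars the means. For the 5 arginine genes every can1 point lies above every wild-type point of the same assay, and for GCN4 the mRNA points of can1 lie below those of wild type.

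ARG3 and ARG1 rose most in both assays and much less in the ratio. ARG3, ornithine carbamoyltransferase, had footprints of 6.78, 3.39 and 2.21 RPKM in wild type and 70.5, 68.2 and 79.3 in can1, with mRNA of 5.86 and 2.63 against 47.7 and 56.5. The footprint change of ARG3 was 3.94 ± 0.28 (limma adjusted p = 1.98e-05), beside an mRNA change of 3.41 ± 0.21 (limma adjusted p = 4.87e-52). That mRNA error and p lean on a spread pooled over rows, although the 2 wild-type mRNA values of ARG3 lay well apart. This left 0.54 ± 0.47 in the ratio, with an interval from −0.48 to 1.55. ARG1, argininosuccinate synthetase, had footprints of 34.0, 28.7 and 17.8 RPKM in wild type and 240, 274 and 337 in can1. Its mRNA levels were 54.0 and 17.7 in wild type, a spread of about 3-fold, and 227 and 229 in can1. The ratio changed by 0.56 ± 0.55, with 0.73 from libraries numbered 1 and −0.40 from those numbered 2.

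ARG4, ARG2 and ARG7 had ratio changes whose intervals all held 0. ARG4, argininosuccinate lyase, stood at 0.25 ± 0.27 in the ratio (−0.17 without wild-type mRNA replicate 1). ARG2, acetylglutamate synthase, at 0.18 ± 0.21, and ARG7, ornithine acetyltransferase, at −0.02 ± 0.23, passed in neither assay. Every arginine gene named here as passing in mRNA, apart from ARG3, lost that call without can1 mRNA replicate 2. The list median was 0.07 without wild-type mRNA replicate 1 and 1.06 without wild-type mRNA replicate 2. Libraries numbered 1 gave a list median of 0.73 and those numbered 2 gave −0.01.

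**Figure D3:**
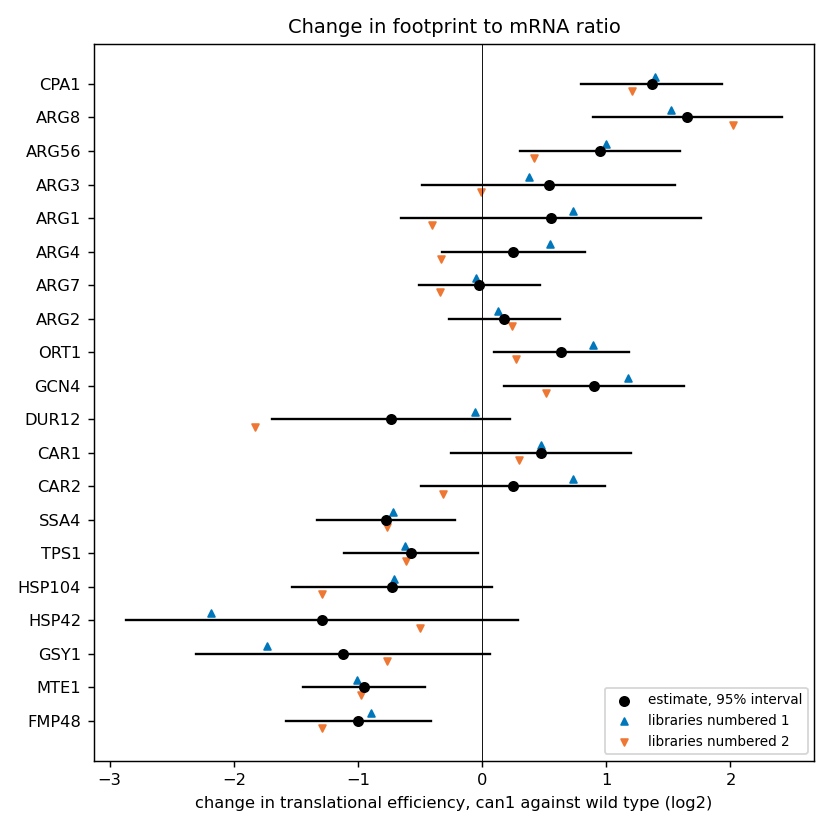
Fitted change in the footprint to mRNA ratio, can1 against wild type, on the log2 scale, with 95% intervals, for the genes named on the vertical axis. Triangles show the change computed from the libraries numbered 1 and numbered 2 alone. The intervals of CPA1, ARG8, ARG56, ORT1 and GCN4 lie above 0, and those of SSA4, TPS1, MTE1 and FMP48 lie below 0, before adjustment over rows.

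GCN4 itself had 53.1, 91.6 and 50.5 RPKM of footprints in wild type and 88.0, 107 and 79.1 in can1, so the groups overlapped. Its mRNA was 824 and 640 RPKM in wild type and 600 and 521 in can1. The ratio was low in both strains, 0.0889 and 0.163, and changed by 0.90 ± 0.34 with an interval from 0.18 to 1.63. The unadjusted limma p was 0.0181 and the adjusted p 0.9998. Values between 0.72 and 1.17 came from leaving out single libraries, and the libraries numbered 1 and 2 gave 1.18 and 0.52. Known targets of Gcn4 were described as a list. Of 30 tested targets outside arginine synthesis 25 lay above 0 with a median of 0.16, none passed in the ratio, footprints or mRNA (1 rose in footprints with the replicate block), and the median, which was −0.02 without scaling beyond the deposited RPKM, was 0.38 in libraries numbered 1 and −0.13 in those numbered 2. HIS1, the first enzyme of histidine synthesis, stood at 0.40 ± 0.20 and LYS9, of lysine synthesis, at 0.34 ± 0.21. The 14 regulators of GCN4 and its protein, among them the kinase GCN2 and the subunits of eIF2 and eIF2B, had a median of 0.01 and a range from −0.28 to 0.22.

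Among the other regulators and carriers of the arginine genes, 10 of 11 were tested, with a median of 0.11 (−0.07 without scaling beyond the deposited RPKM). ORT1, which exports ornithine from mitochondria, had 8.32, 8.77 and 8.84 RPKM of footprints in wild type and 11.7, 10.9 and 13.3 in can1, with mRNA of 40.2 and 26.9 against 29.3 and 27.3. Footprints did not overlap and mRNA did, and the ratio change was 0.64 ± 0.25 (unadjusted p = 0.0239, limma adjusted p = 0.9998). ARG82, an inositol polyphosphate kinase needed for the ArgR/Mcm1 complex, stood at 0.67 ± 0.29 in the ratio. The 14 genes known for regulatory upstream reading frames had a median of 0.03, with 7 above 0, and CPA1 had the highest change of them.

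Of 8 genes of arginine, proline and urea breakdown 5 were tested, of which 1 lay above 0 in footprints, 1 in mRNA and 3 in the ratio. In footprints DUR12 and CAR2 fell, where 0.0833% of rows were called lower, and in mRNA DUR12, CAR1 and CAR2 fell, where 0.354% were. CAR2, ornithine transaminase, had 86.3, 142 and 130 RPKM of footprints in wild type and 25.5, 39.3 and 40.9 in can1. Its mRNA was 11.0 and 8.59 against 1.20 and 2.36, and the ratio change was 0.25 ± 0.35. At a pseudocount of 5 that value was −0.50, and it was −0.06 without can1 mRNA replicate 1. CAR1, arginase, stood at 0.47 ± 0.34 in the ratio. DUR12, urea amidolyase, had footprints of 8.95, 17.3 and 8.54 RPKM in wild type and 1.98, 2.55 and 2.58 in can1, with mRNA of 12.7 and 5.96 against 3.27 and 3.80. Its fitted ratio change was −0.73 ± 0.45, beside −0.06 from libraries numbered 1 alone and −1.83 from those numbered 2 alone.

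Stress genes bear on the series title, which links loss of CAN1 to translation of stress response genes. Of 36 general stress genes under Msn2 and Msn4, 27 were tested, and in the ratio none passed. Their median ratio change was −0.25, with 5 of 27 above 0 and a range from −1.29 to 0.32. The median change was 0.02 in footprints, where none passed, and 0.29 in mRNA, where 5 rose and 1 fell (7 and 1 with the replicate block). Over all rows 0.833% rose and 0.354% fell in mRNA, and with the replicate block 114 of 4801 rows were called there. Libraries numbered 1 gave a ratio median of −0.33 and those numbered 2 gave −0.43, and the median ran from −0.56 without can1 mRNA replicate 1 to −0.15 without can1 mRNA replicate 2. The 9 members not tested were SSA3, RTN2, CTT1, SOL4, GND2, GPX1, TFS1, DDR2 and DCS2.

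HSP42 is a small heat shock protein. Its mRNA rose from 4.03 and 8.90 RPKM in wild type to 14.8 and 26.4 in can1 (1.56 ± 0.24, adjusted p = 2.95e-08). Its footprints were 3.29, 3.43 and 7.10 RPKM in wild type and 1.97, 7.66 and 9.52 in can1, which overlap, and the ratio changed by −1.29 ± 0.72. HSP104, the disaggregase, had footprints of 60.2, 61.8 and 57.1 RPKM in wild type and 40.2, 49.0 and 74.4 in can1, with mRNA of 25.8 and 21.1 against 28.6 and 41.9, and its ratio changed by −0.72 ± 0.38. SSA4, an inducible Hsp70, had footprints of 6.61, 5.32 and 5.32 RPKM in wild type and 2.65, 2.75 and 2.11 in can1, with no overlap. Its mRNA was 12.5 and 9.54 against 9.63 and 9.60, and the ratio change was −0.78 ± 0.26 (unadjusted p = 0.00935, limma adjusted p = 0.9998). HSP12, a membrane-binding stress protein, fell in mRNA, from 30.1 and 19.0 to 8.63 and 6.89 RPKM (−1.52 ± 0.22, adjusted p = 2.36e-09). Its ratio change was 0.32 ± 0.65.

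Chaperone genes under Hsf1 had a ratio median of −0.00 over 20 rows, with −0.21 in footprints and −0.22 in mRNA. In mRNA 2 of them rose, where 0.833% of all rows did (with 1 lower as well in the replicate block). CUR1, a protein-sorting factor of stressed cells, stood at −1.14 ± 0.47 in the ratio. Trehalose and glycogen genes make the storage carbohydrates of stressed and resting cells. Over 16 tested rows they had a median of −0.11 in the ratio, 0.19 in footprints and 0.40 in mRNA. In mRNA 4 of these rose against the same 0.833% (5 with the replicate block, which called 114 of 4801 rows in mRNA). Their ratio median was −0.50 without can1 mRNA replicate 1 and 0.15 without can1 mRNA replicate 2. GSY1, a glycogen synthase, had mRNA of 2.43 and 6.17 RPKM in wild type and 15.1 and 29.9 in can1, and footprints of 1.53, 0.715 and 2.00 against 2.56, 3.34 and 6.44. Both assays were higher without overlap, the mRNA passed (2.17 ± 0.24, limma adjusted p = 2.99e-14), and the ratio changed by −1.12 ± 0.55. That mRNA error and p lean on a spread pooled over rows, although the wild-type mRNA values of GSY1 lay well apart. TPS1, trehalose phosphate synthase, changed by −0.57 ± 0.25 in the ratio. Antioxidant genes had a ratio median of 0.16 over 25 rows (−0.03 without scaling beyond the deposited RPKM), with TSA1, a peroxiredoxin, at 0.52 ± 0.23, and 3 of them fell in mRNA with the replicate block against none without it.

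Ribosomal protein genes lay slightly above all rows in the ratio, with lower values in mRNA than in footprints and none past the threshold in the ratio or in footprints. The 56 tested rows taken by name for the large subunit include RPP1, a subunit of RNase P and no ribosomal protein, which was set aside after seeing the data. The 55 others had a median of 0.28 in the ratio, −0.16 in footprints and −0.42 in mRNA, with 50 above 0 in the ratio, and the large subunit medians that follow hold all 56, whose median ratio was 0.27. The 42 rows of the small subunit had 0.24, −0.15 and −0.41, with 37 above 0. In mRNA 1 of them, RPS28B, fell, where 0.354% of all rows did. With the replicate number as a block, 11 large subunit and 11 small subunit rows fell in mRNA, where that fit called 114 of all 4801 rows. RPS25A (−0.91, limma adjusted p = 2.69e-06) and RPS12 (−0.86, limma adjusted p = 6.82e-06) were among the small subunit rows. Without the block their limma adjusted p in mRNA was 0.64 and 0.75. In footprints 1 small subunit row fell with the block, and none passed in the ratio. RPS25A had 15578 and 6972 RPKM of mRNA in wild type against 6905 and 4432 in can1, so that can1 replicate 1 stood level with wild-type replicate 2, and a ratio change of 0.83 ± 0.38. RPS12 had a ratio change of 0.72 ± 0.35 and RPL22B 0.53 ± 0.27. The large subunit median was 0.02 without can1 mRNA replicate 2 and 0.07 without wild-type mRNA replicate 1, and the small subunit median was 0.07 without either. Without scaling beyond the deposited RPKM the medians were 0.08 and 0.05. These are short genes, with median listed lengths of 498.5 and 554 against 1199 over all rows, and once each library's length trend was taken out the medians were 0.23 and 0.19. Many ribosomal protein genes exist as near-identical pairs, and merged rows are among those counted.

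**Figure D4:**
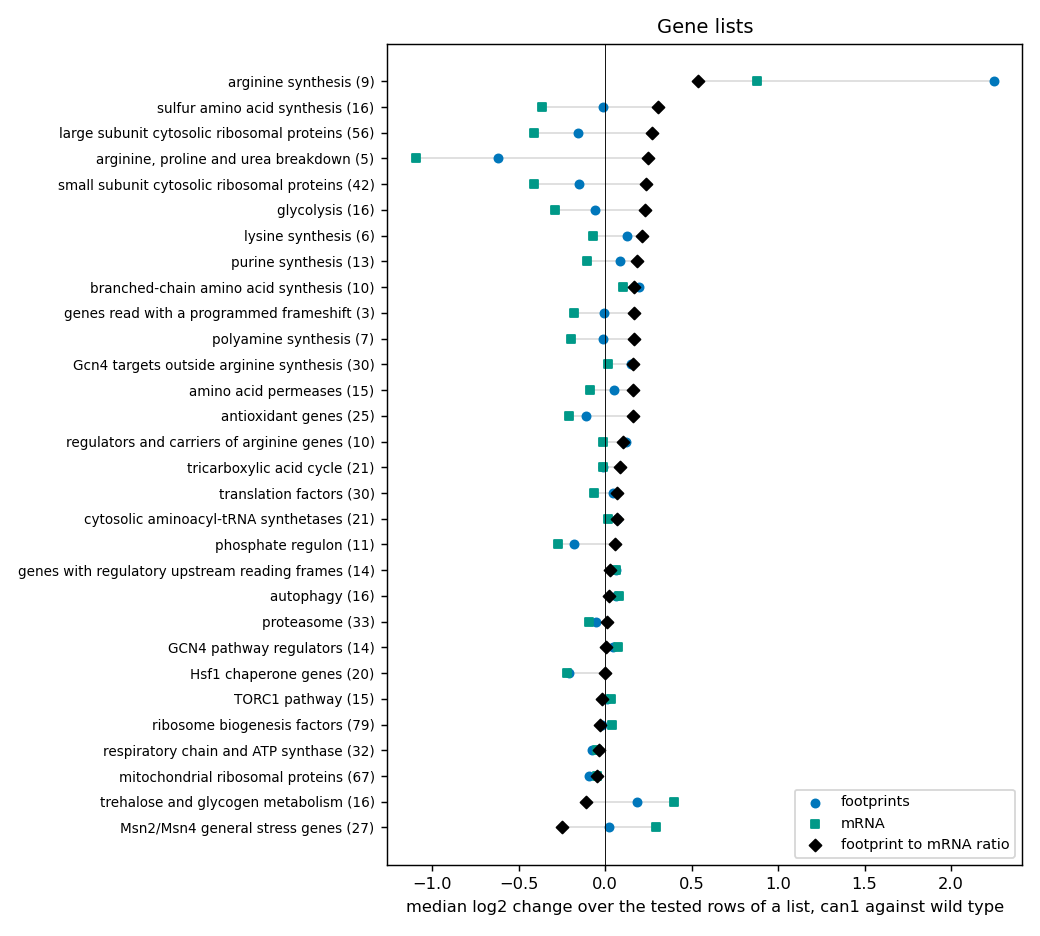
Median log2 change, can1 against wild type, over the tested rows of each of 30 gene lists (number of rows in brackets), for footprints (circles), mRNA (squares) and their ratio (diamonds). Arginine synthesis stands apart in footprints at 2.25, while list medians of the ratio lie between −0.25 and 0.54.

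The ratio median was 0.07 over 30 rows of translation factors, 0.07 over 21 cytosolic aminoacyl-tRNA synthetases, −0.05 over 67 rows named as mitochondrial ribosomal proteins and −0.03 over 79 taken by name as ribosome biogenesis factors, and none of these rows passed in the ratio, footprints or mRNA (1 translation factor and 1 biogenesis factor fell in mRNA with the replicate block). Without scaling beyond the deposited RPKM the median of the translation factors was −0.11. DED1, a helicase of initiation, stood at 0.70 ± 0.37, with 1.44 from libraries numbered 1 and 0.03 from those numbered 2. Genes of the TORC1 pathway, which couples amino acids to growth, had a median of −0.02 over 15 rows, with GTR1, a GTPase of that pathway, at 0.59 ± 0.26.

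Sulfur amino acid synthesis had medians of 0.31 in the ratio, −0.01 in footprints and −0.37 in mRNA over 16 rows. Its ratio median was 0.54 in libraries numbered 1 and 0.18 in those numbered 2, and 0.13 to 0.52 with single libraries left out. Glycolysis had 0.23, −0.06 and −0.29 over 16 rows, of which 1 rose in mRNA, where 0.833% of all rows did. With the replicate block 2 of the 16 rose and 2 fell, in a fit that called 114 of 4801 rows in mRNA. The ratio median of glycolysis was 0.57 in libraries numbered 1 and −0.09 in those numbered 2, and 0.01 to 0.49 with single libraries left out. Purine synthesis had 0.19, 0.09 and −0.11 over 13 rows, with a ratio median from 0.05 to 0.34 when single libraries were left out. Branched-chain amino acid synthesis had 0.17 (−0.01 without scaling beyond the deposited RPKM), 0.19 and 0.11 over 10 rows, of which none passed (2 rose in footprints and 1 in mRNA with the replicate block), with ILV5, acetohydroxyacid reductoisomerase, at 0.57 ± 0.25. Polyamine synthesis, which starts from ornithine, had a median of 0.17 with 7 of 7 rows above 0, and a median of −0.01 without scaling beyond the deposited RPKM. TPO1, a polyamine exporter, stood at 0.85 ± 0.29, which was 1.52 in libraries numbered 1 and 0.22 in those numbered 2. The tricarboxylic acid cycle (0.08), the respiratory chain (−0.04), the proteasome (0.01) and autophagy (0.02) lay near 0 in the ratio.

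Outside the lists, the rows with the smallest unadjusted p included MTE1, a DNA repair and telomere protein. It had footprints of 6.33, 7.52 and 6.79 RPKM in wild type and 3.30, 2.75 and 3.31 in can1, a footprint change of −0.94 ± 0.15 (adjusted p = 0.0248) that did not pass when any 1 of the 6 footprint libraries was left out. Its mRNA was 18.5 and 21.3 against 21.9 and 18.4. The ratio thus went from 0.346 to 0.155, a change of −0.95 ± 0.23 (unadjusted p = 0.000869, limma adjusted p = 0.9998), and libraries numbered 1 and 2 gave −1.01 and −0.98. FMP48 had footprints of 3.15, 2.67 and 2.41 RPKM in wild type and 1.23, 0.866 and 1.17 in can1. These levels rest on few reads, 26, 13 and 6 in wild type and 11, 4 and 4 in can1. FMP48 had like mRNA levels of 1.98 and 1.22 against 1.97 and 1.77, and a ratio change of −0.996 ± 0.28. CMK2, a calmodulin-dependent kinase, whose mRNA passed with the replicate block (0.72, adjusted p = 0.0285), had mRNA of 21.5 and 25.3 RPKM against 42.0 and 36.4 with footprints of 22.2, 19.98 and 16.9 against 19.3, 20.6 and 20.03, and a ratio change of −0.70 ± 0.22. GID8, of the GID ubiquitin ligase, had footprints of 8.21, 8.33 and 9.27 RPKM in wild type and 7.64, 6.55 and 7.02 in can1, with mRNA of 10.1 and 15.1 against 17.02 and 18.5. Neither assay overlapped between strains and neither passed, and the ratio change was −0.74 ± 0.23. UBC5 (−0.67), YDL124W (−0.64), PIN3 (−0.85) and CPP1 (−1.07) make up the rest of the 10 lower rows, with CAN1 and SSA4.

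Among the 10 higher rows by the same rule, CPA1, ARG8 and ARG56 were joined by PFA5, a palmitoyltransferase (0.98 ± 0.31), NCA3 (0.92 ± 0.29), HLR1 (1.18 ± 0.39), EKI1, ethanolamine kinase (0.61 ± 0.20), TPO1, ERG28, of ergosterol synthesis (0.66 ± 0.24), and RPB11, a subunit of RNA polymerase II (0.65 ± 0.24). NCA3 rested on mRNA levels of 2.35 and 1.46 RPKM in wild type and 0.814 and 0.722 in can1. HLR1 had mRNA of 17.6 and 9.80 RPKM in wild type and 6.63 and 5.92 in can1, which passed as lower (−0.96 ± 0.22, adjusted p = 0.00119), with overlapping footprints. Apart from CPA1 and ARG8 the adjusted p of these rows in limma was 0.9998.

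Changes in ratio were also set side by side by replicate number. The ratio changes by number leave out footprint replicate 3 of both strains. They pair libraries by a number that is little borne out in mRNA (correlation 0.11). Their Spearman rho with length also differed, at 0.13 in numbers 1 and −0.35 in numbers 2. The comparison therefore cannot decide whether changes in ratio recurred. Changes computed from the libraries numbered 1 and from those numbered 2 correlated at a Pearson r of −0.02 over 4800 rows, with standard deviations of 0.42 and 0.34. The changes in footprints correlated between numbers at 0.37, 0.22 and 0.26, and those in mRNA at 0.23. Of the 30 lists, 13 had ratio medians of the same sign in both numbers and 17 did not. Some lists share rows, and some medians lay next to 0, such as 0.0024 for the TORC1 pathway in numbers 1. The tally is thus a description only. Those of the same sign included the Msn2/Msn4 stress genes (−0.33 and −0.43), the large subunit list (0.13 and 0.23) and the small subunit (0.21 and 0.25). For the stress genes the fit to all libraries gave −0.25. Their footprint medians were −0.21, −0.02 and 0.11 in numbers 1, 2 and 3. Those that differed in sign included arginine synthesis (0.73 and −0.01), trehalose and glycogen metabolism (0.04 and −0.53), Hsf1 chaperone genes (0.03 and −0.26) and mitochondrial ribosomal proteins (−0.11 and 0.11).

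**Figure D5:**
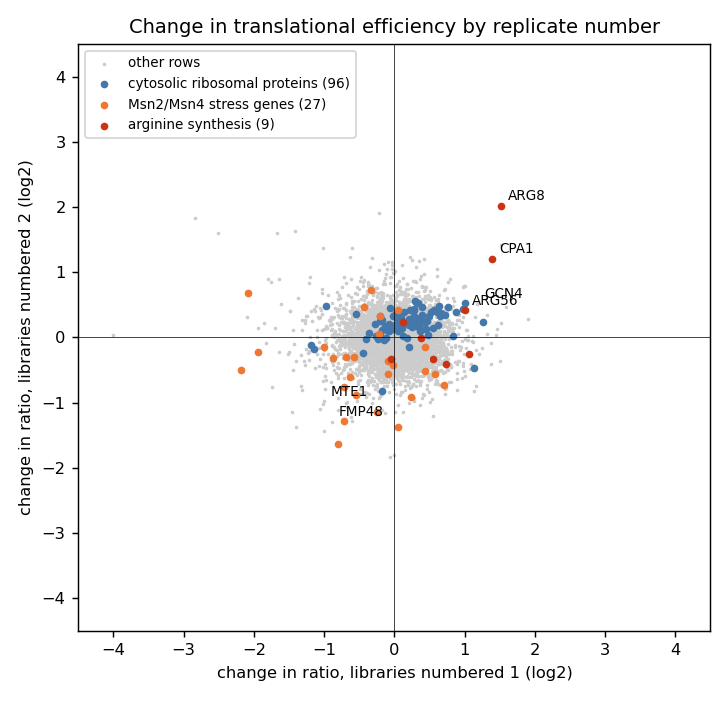
Change in the footprint to mRNA ratio, can1 against wild type, from libraries numbered 1 (horizontal) and numbered 2 (vertical), in log2, with 1 point per tested row except CAN1. The cloud has no slope (r = −0.02), and ARG8 and CPA1 lie at its upper right edge.

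Medians of the ratio change differed little with sequence features. The median was −0.01 for 811 rows with an ATG in the 50 bases before the start codon and −0.01 for 3902 rows without, where only the coding strand was searched. Of all 5446 windows, 19.15% held such an ATG. By the base at position −3 it was −0.01 for A (2907 rows), 0.01 for C (407), −0.02 for G (919) and −0.02 for T (480). Arginine content of the protein correlated with the change at a Spearman rho of −0.05 over 4713 rows, and the 1178 rows with the most arginine had a median of −0.02 against 0.02 for the 1179 with the least. Length had a rho of −0.14 over all libraries, which was 0.13 in libraries numbered 1 and −0.35 in those numbered 2. Rows of a listed length under 500 had a median of 0.04 and rows of 2000 or more −0.05, and the part of library length trends in this was not tested.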

How the data were processed

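Footprints (RNase I digestion, 80S fraction, cycloheximide in the lysis buffer) and poly(A)-selected mRNA (alkaline hydrolysis, fragments of 50 to 75 nt) were sequenced by the authors, per the labels' protocols. Reads were aligned with Bowtie 1.1.2 to build R64, per the submitters' processing notes. The deposited files hold RPKM per open reading frame, per the file headers, and the listed length fell 100 bases short of the coding length in 5408 of 5456 single genes. How reads with several matches were assigned and whether strand was used are not given in the sources used here, so the 88 tested rows that merge near-identical genes and the 60 that overlap another gene are uncertain.

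Because the files hold RPKM, the test was limma 3.58.1 (R 4.3.3) on log2 of scaled RPKM plus 1, a scale that understates changes of low genes, with its variance moderation set to trended and robust. Scaling used trimmed means of M values within an assay (30% trimmed on fold, 5% on level). Efficiency changes were the assay by strain interaction in a fit of 8 group means to the 16 libraries. Footprint and mRNA changes came from the 10 footprint and 6 mRNA libraries. Rows were called at a p under 0.05 after Benjamini-Hochberg adjustment over the 4801 rows, and errors are standard errors. For most rows the errors and p-values in mRNA come from a spread pooled over rows and not from the gene's own replicates. Ratio levels divide mean scaled RPKM, without the pseudocount. Library totals and reads were recovered from the even steps of low RPKM values: all values checked, of up to 50 reads, came out whole within 0.05. Wild-type footprint replicate 1 and wild-type mRNA replicate 2 were fitted as means of 2 runs, so their reads are approximate. Reads carry no molecular identifiers, so floors cover counting error only. The fit was tested on simulated reads with known changes planted in the can1 footprint libraries. Those reads held no length trend and no effect of replicate number, so the simulation cannot speak to either.

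Replicate numbers were checked as pairs on deviations from strain means. Wild-type and can1 libraries of 1 number correlated at 0.60, 0.19 and 0.34 in footprints and 0.11 in mRNA. Footprint libraries of unlike number ran from −0.44 to 0.20, the latter for wild type 3 with can1 2. In mRNA the median absolute log2 difference was 0.23 and 0.20 within a number, against 0.11 between wild type 2 and can1 1. The pairing is thus little borne out in mRNA. The number was taken to pair libraries within an assay for the replicate block, and block calls in mRNA rest on that choice. Between footprint and mRNA libraries of the same strain and number 1 the correlation was 0.01 in wild type and 0.31 in can1.

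Members, lists and the naming rule were chosen with earlier results of these data known. The rule names CAN1, GCN4, CPA1, the arginine synthesis genes, the 10 rows per direction with the smallest p in the ratio where fewer pass, up to 3 members per list with the smallest p, and up to 10 rows per direction called in footprints or mRNA. Alternatives covered the pseudocount, scaling, filter, libraries fitted, replicate blocks, assay weights, voom on recovered reads, length trends, merged rows and single libraries left out. Some genes that meet the rule are not reported here.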

Additional observations from a re-analysis of the deposited data

How the results depend on the processing

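No row kept a call in the ratio under every alternative. The count of 1 row was 0 at a pseudocount of 0.5, with only the 10 libraries of both strains, under voom on recovered reads, and with the replicate block and only those 10 libraries (a fit added after seeing the data). It ran from 0 to 2 when single libraries were left out, with CPA1 added without can1 footprint replicate 1 and YNL162W-A (−3.41, adjusted p = 0.0226) without wild-type mRNA replicate 2. The lysate block called ARG8 in place of CAN1. The replicate block raised the footprint count from 11 to 18, with all 11 among them, and the mRNA count from 57 to 114, and it changed no call in the ratio. With the block and only the 10 libraries these were 29 and 115. The footprint count ran from 8 to 14 with single libraries left out. The mRNA count was 33 with a filter at 50 reads, 8 with length trends removed (4 higher, 4 lower), and 3 to 113 with single libraries left out. Without scaling beyond the deposited RPKM the median ratio change of all rows moved to −0.18, so that most list medians between 0 and 0.18 fell below 0, and the mRNA split was 38 higher and 5 lower against 40 and 17.

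Single genes turned direction in a few fits. CAN1 stood at 0.0045 under voom and CAR2 at −0.50 at a pseudocount of 5. With single libraries left out, CAR2 ran from −0.059 to 0.53, ARG1 from −0.22 to 1.32, ARG4 from −0.17 to 0.66, HSP12 from −0.19 to 0.63 and ARG7 from −0.27 to 0.22. The causes were not tested. The unadjusted 95% interval of a ratio change reached a factor of 1.45 to either side at the median row, and the larger changes of CPA1 and ARG8 did not pass in the reported fit.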
